A study of Arabidopsis thaliana with 18 samples.

Results

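The genes described here are 10 nuclear genes of Arabidopsis thaliana that encode enzymes of the Calvin cycle, the small subunit of Rubisco and Rubisco activase. They were chosen by their AGI codes and not by a cut on measured values, though with earlier results of these data known. All 10 were among the 14229 genes of the deposited table. They are the 4 Rubisco small subunit genes RBCS1A (AT1G67090), RBCS1B (AT5G38430), RBCS2B (AT5G38420) and RBCS3B (AT5G38410), the Rubisco activase gene RCA (AT2G39730), the phosphoribulokinase gene PRK (AT1G32060), GAPA (AT3G26650) and GAPB (AT1G42970) for the subunits of the chloroplast glyceraldehyde phosphate dehydrogenase, the sedoheptulose bisphosphatase gene SBPASE (AT3G55800), and the phosphoglycerate kinase gene PGK1 (AT3G12780).

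RNA of whole Col-0 wild-type seedlings was sequenced by Lasy-Seq, which reads transcripts near their 3′ ends, in 18 libraries that form 6 groups of 3. The groups were 5 µM DPAM-1 with 100 mM NaCl, 5 µM DPAM-1 alone, 5 µM coronatine with 100 mM NaCl, 5 µM coronatine alone, 1% DMSO with 100 mM NaCl, and 1% DMSO alone. Compounds were given 4 days after germination to seedlings in liquid medium, NaCl followed 16 h later, and seedlings were collected 2 h after the NaCl. Coronatine is a bacterial toxin that mimics the active jasmonate hormone, and DPAM-1 is known here only by its code name. For the compound groups no solvent is given in the labels, and for seedlings without NaCl no mock addition and no time of collection. Effects of solvent or handling and effects of compound or salt cannot be told apart. Nothing in the labels says that the 3 libraries of a group came from separate cultures, so the p-values may measure technical spread only. In whole seedlings, fewer green cells and less of a transcript per cell cannot be told apart.

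The Calvin cycle fixes carbon dioxide in the chloroplast stroma. Rubisco joins carbon dioxide to ribulose bisphosphate, phosphoglycerate kinase and glyceraldehyde phosphate dehydrogenase then reduce the product to triose phosphate, and enzymes such as sedoheptulose bisphosphatase and phosphoribulokinase rebuild the acceptor. Rubisco holds a large subunit encoded in the chloroplast and a small subunit encoded by a small nuclear gene family, and Rubisco activase frees its active sites of bound inhibitory sugars. Jasmonates are known to lower photosynthesis genes in leaves.

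The 4 small subunit copies are alike in sequence and gave different fold changes after coronatine, so the ends of their coding sequences are shown. RBCS1A lies on chromosome 1, and RBCS3B, RBCS2B and RBCS1B are neighbouring genes on chromosome 5, all on the minus strand. Each line gives the last 150 coding bases with the stop codon, which lie in the last of 3 coding exons, read 5′ to 3′ from the RefSeq annotation of TAIR10.1. Capitals mark bases that differ from RBCS1A in an alignment of the coding sequences.
RBCS1A: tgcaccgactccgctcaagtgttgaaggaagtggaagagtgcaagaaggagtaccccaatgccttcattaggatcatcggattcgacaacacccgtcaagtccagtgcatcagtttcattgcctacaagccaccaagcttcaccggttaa
RBCS1B: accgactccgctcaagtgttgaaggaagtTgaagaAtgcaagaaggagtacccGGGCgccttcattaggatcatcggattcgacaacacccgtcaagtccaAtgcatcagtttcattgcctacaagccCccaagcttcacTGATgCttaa
RBCS2B: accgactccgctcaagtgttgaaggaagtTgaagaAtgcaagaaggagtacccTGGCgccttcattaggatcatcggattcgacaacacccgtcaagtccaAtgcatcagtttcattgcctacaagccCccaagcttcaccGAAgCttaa
RBCS3B: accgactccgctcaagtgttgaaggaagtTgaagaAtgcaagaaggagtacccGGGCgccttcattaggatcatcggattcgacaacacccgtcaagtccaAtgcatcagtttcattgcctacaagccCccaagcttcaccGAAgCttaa

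RBCS1B differs from RBCS1A at 13 of the 150 bases shown, and RBCS2B and RBCS3B at 12 each. Over the whole coding sequence, RBCS1A was identical to the other 3 copies at 89.9% to 90.1% of aligned bases, while the 3 copies of chromosome 5 were identical to each other at 96.7% to 97.3%. Within the last 300 bases of 1 annotated transcript per copy, where a 3′-end protocol reads, every stretch of 50, 75 or 100 bases occurred in 1 copy alone. That does not hold for the coding ends shown, where the 3 copies of chromosome 5 share a stretch of more than 75 bases. Reads that lie within that stretch would not tell these 3 copies apart. Reads with mismatches could still be given to another copy, and read length is not given in the sources used here, so values of single copies are less certain than their sum.

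Library totals lay between 13638981 and 37279056 reads, and the 10 genes took 3.77% to 5.35% of them. Levels below are CPM, reads of a gene on a scale common to all library sizes, after TMM scaling. TMM corrects library totals by factors, here between 0.847 and 1.13, which were under 1 in all 6 coronatine libraries. A gene passed at an adjusted p under 0.05 in the quasi-likelihood test of edgeR, with the Benjamini-Hochberg correction over all 14229 genes. Fold changes are log2 values with their standard error (SE) from 3 libraries in each group. Light-harvesting genes, markers of green tissue, summed to between 29572 and 42349 CPM, and 12 root markers to between 253 and 307 CPM, with none of the 12 at 0 in any library.

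Against DMSO, coronatine under NaCl gave the most calls among the members. Compared with DMSO and NaCl, 5 of the 10 genes fell (RBCS1B, RBCS2B, RCA, PRK and SBPASE), none rose, and the other 5 did not pass. All genes of the table set the scale for that count: 47.8% of them passed in this comparison and 24% passed as lower. Without NaCl, coronatine lowered RBCS1B and RCA in the main fit, and no member rose there, where 34.8% of all genes passed and 17.4% passed as lower. The median log2 fold change of the members was -0.24 under NaCl and -0.09 without it, beside -0.01 over all genes in each comparison.

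**Figure D1:**
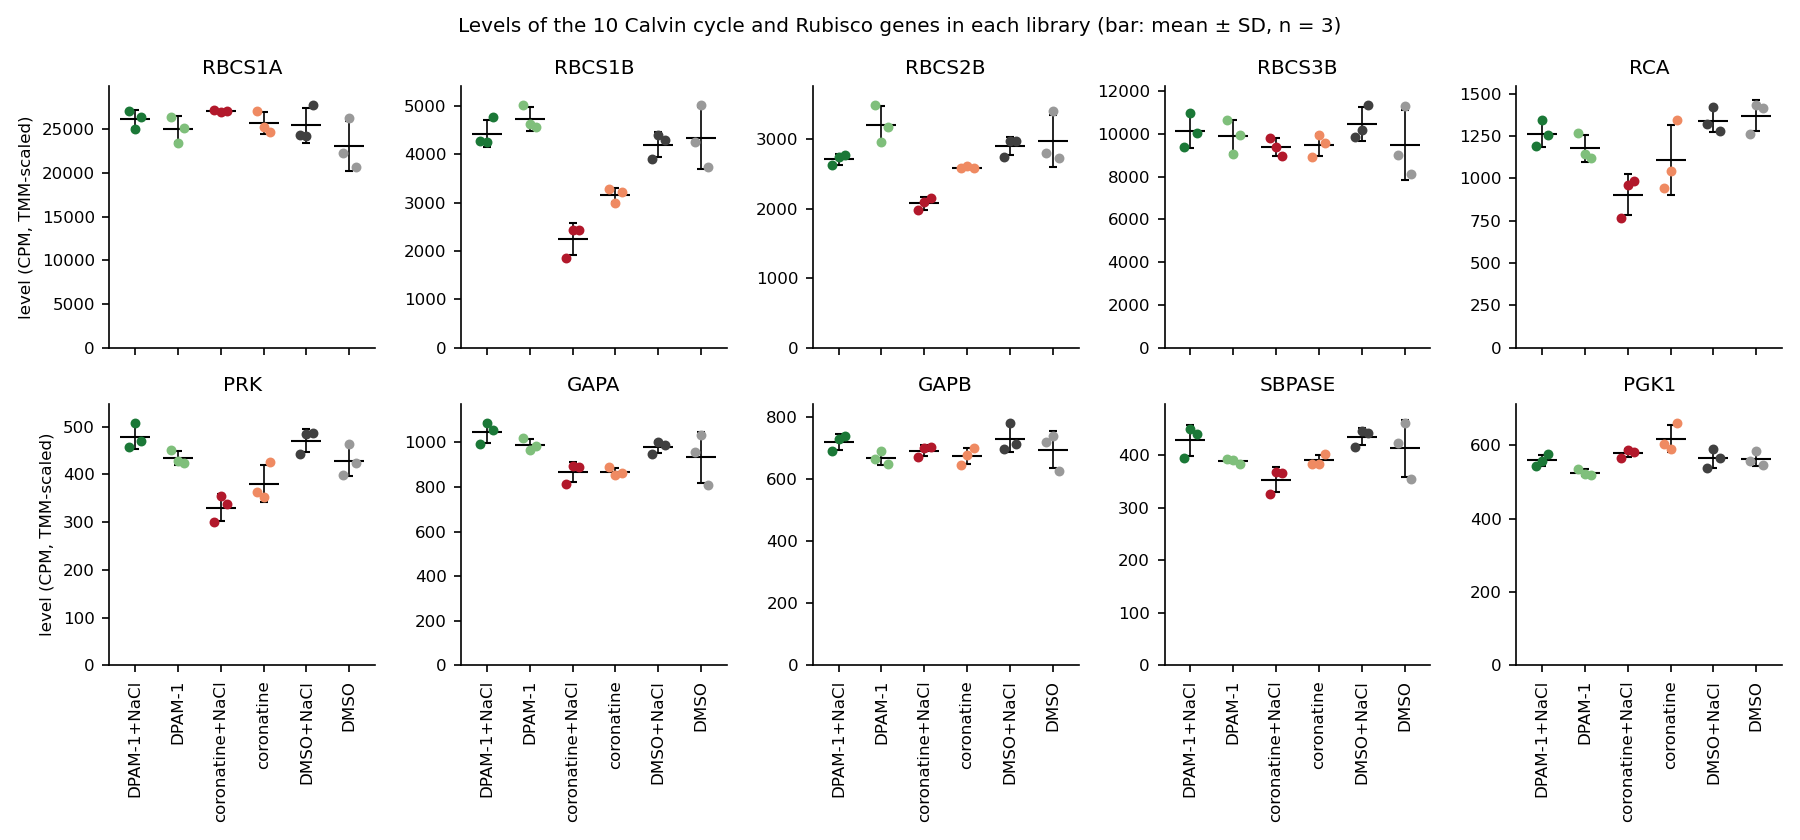
Levels of the 10 genes in CPM after TMM scaling, 1 panel per gene with its axis from 0. Points are libraries, and bars give the mean ± SD of 3 libraries for the 6 groups. The coronatine with NaCl libraries of RBCS1B (1859 to 2439.5 CPM) sit below all libraries of the 5 other groups, while those of RBCS1A (27015 to 27143 CPM) sit at the height of the others.

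RBCS1B, one of the small subunit copies of chromosome 5, had 1859, 2439.5 and 2425 CPM in the coronatine with NaCl libraries, against 3909, 4393 and 4291 CPM in DMSO with NaCl. Without NaCl it had 3281, 3001 and 3211 CPM after coronatine, against 4245, 5012 and 3737 CPM in DMSO. The groups did not overlap in either comparison, and the lowest libraries of all 18 were those given both coronatine and NaCl. By edgeR's test the log2 fold change was -0.91 ± 0.10 under NaCl, 1.87-fold lower, adjusted p = 8.4e-08, and -0.45 ± 0.10 without NaCl, 1.37-fold lower, adjusted p = 9.7e-04. Both decreases were called with each library left out in turn and by each scaling tried, though neither estimate reached a log2 fold change of 1 in size.

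RBCS2B, its neighbour, had 1978, 2098 and 2151 CPM after coronatine with NaCl, against 2746, 2980.1 and 2977 CPM in DMSO with NaCl. It had 2583, 2608 and 2579.7 CPM after coronatine alone, against 2797, 3407 and 2723 CPM in DMSO. All coronatine libraries lay below the DMSO libraries of the same salt state. Under NaCl the log2 fold change was -0.48 ± 0.08, adjusted p = 2.3e-05 by edgeR's test. Without NaCl it was -0.20 ± 0.08 and missed the threshold at adjusted p = 0.0541. It passed at 0.0351 in a fit of these groups alone with the replicate number as a block. That fit was chosen after same-numbered libraries of these groups were seen to deviate together, and the labels give no such pairing.

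RBCS1A, the copy on chromosome 1, had 27143, 27015 and 27087 CPM after coronatine with NaCl, against 24323, 24225 and 27721 CPM in DMSO with NaCl. Its levels were 27078, 25249.8 and 24697 CPM after coronatine alone, against 22243, 26271 and 20723 CPM in DMSO. The groups overlapped in both comparisons, with log2 fold changes of 0.09 ± 0.08 (95% interval -0.08 to 0.26) under NaCl and 0.15 ± 0.08 (-0.02 to 0.32) without it. With library totals in place of TMM both turned negative, to -0.23 and -0.07. Leaving out DMSO replicate 2 moved the value without NaCl the other way, to 0.25. RBCS1A was then called higher (adjusted p = 0.0132 by edgeR's test). RBCS3B, the third copy of chromosome 5, had 9806, 9383 and 8977 CPM after coronatine with NaCl, against 9838, 10185 and 11335 CPM in DMSO with NaCl. Although these groups did not overlap, the log2 fold change of RBCS3B was -0.15 ± 0.10 with adjusted p = 0.197 by edgeR's test, and it passed (0.0298) in a fit of these groups alone. Without NaCl it was 0.00 ± 0.10, with overlapping groups.

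The 4 copies summed to 40786 ± 149 CPM after coronatine with NaCl and 42974 ± 2945 CPM in DMSO with NaCl (SD, n = 3 each), a log2 fold change of -0.08 ± 0.08 with adjusted p = 0.468 by edgeR's test. Without NaCl the sum was 40919 ± 917 CPM after coronatine and 39862 ± 5499.6 CPM in DMSO (SD, n = 3 each), a log2 fold change of 0.04 ± 0.08 with adjusted p = 0.77. By TMM the sum passed in none of the 11 comparisons made. Before TMM scaling the copies took 3.44% to 3.52% of all reads after coronatine with NaCl, against 4.37% to 4.88% in DMSO with NaCl. They took 3.64% to 3.84% after coronatine alone, against 3.99% to 4.74% in DMSO. The raw shares of reads thus did not overlap in either salt state. Scaled by library totals the sum fell and passed in both, with log2 fold changes of -0.40 under NaCl (adjusted p = 2.8e-06 by edgeR's test) and -0.18 without NaCl (0.00972). With library totals the median of all genes was itself shifted by -0.34 under NaCl and by -0.24 without it.

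Shares within the family do not depend on scaling between libraries. RBCS1A held 66.4% ± 0.354 of the RBCS reads after coronatine with NaCl and 59.1% ± 1.01 in DMSO with NaCl (SD, n = 3 each). Without NaCl it held 62.7% ± 1.68 after coronatine and 58.0% ± 0.774 in DMSO. After DPAM-1 its share was 60.2% ± 2.1 with NaCl and 58.4% ± 0.378 without it. All 6 coronatine libraries lay above all 6 DMSO libraries, with 61.6% as the lowest and 59.8% as the highest value. Over both salt states the difference between coronatine and DMSO was 6.01 percentage points, with p = 0.005 in a two-sided exact permutation test within salt states (n = 6 each), the smallest p this test can give, and 0.055 after adjustment over the 11 tests of the share. For DPAM-1 against DMSO the difference was 0.741 points with p = 0.32 by the same exact permutation test, adjusted 0.391.

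**Figure D2:**
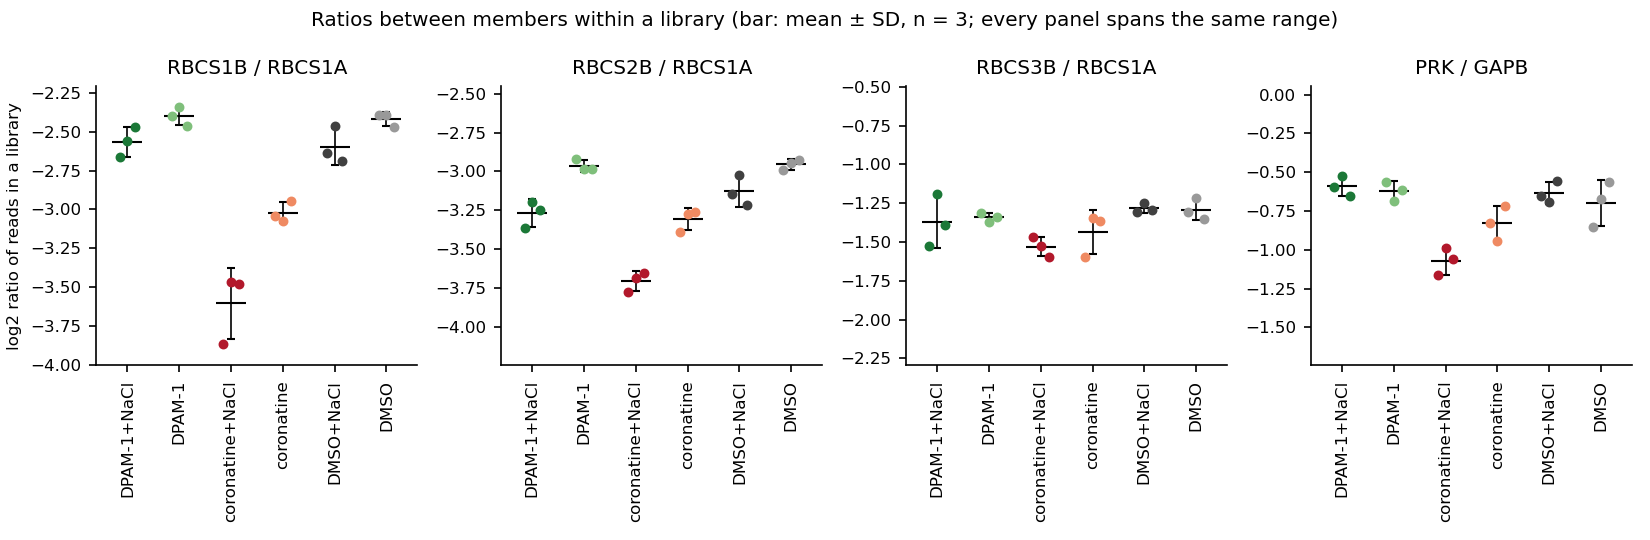
Log2 ratios of reads between members within a library, for RBCS1B, RBCS2B and RBCS3B over RBCS1A and for PRK over GAPB, 1 panel each, with points for libraries and bars for the mean ± SD of 3. In the first 2 panels the coronatine with NaCl libraries (RBCS1B over RBCS1A averaged -3.61) lie lowest, and the coronatine libraries (-3.02) lie below all DMSO libraries (-2.60 with and -2.42 without NaCl).

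The ratio of RBCS1B to RBCS1A averaged -3.61 ± 0.227 (log2, SD, n = 3) after coronatine with NaCl and -2.60 ± 0.119 in DMSO with NaCl. It averaged -3.02 ± 0.0684 after coronatine alone and -2.42 ± 0.047 in DMSO. These ratios were chosen after the values had been seen. Over both salt states the log2 ratio was lower by 0.81 for RBCS1B (-0.81), by 0.46 for RBCS2B (-0.46) and by 0.20 for RBCS3B (-0.20) after coronatine than in DMSO. Two-sided exact permutation tests within salt states gave adjusted p = 0.02, 0.02 and 0.0267 over 8 such tests (n = 6 each). The same ratios differed between DPAM-1 and DMSO by 0.03, -0.07 and -0.07, with adjusted p = 0.565, 0.192 and 0.293 by the exact permutation test. Coronatine and DMSO libraries were apart in both salt states for RBCS1B and RBCS2B over RBCS1A. For RBCS3B over RBCS1A they overlapped without NaCl. Because the ratios were picked from these values, their p-values are no independent test of an unequal change. The planned test of the RBCS1A share gave an adjusted p of 0.055 by exact permutation.

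RCA, which keeps Rubisco active, had 767, 959.7 and 984 CPM after coronatine with NaCl, against 1323, 1419 and 1282 CPM in DMSO with NaCl. The groups did not overlap, and the log2 fold change was -0.57 ± 0.11, 1.48-fold lower, adjusted p = 1.1e-04 by edgeR's test. Without NaCl RCA had 944, 1043 and 1343 CPM after coronatine, against 1264, 1431 and 1413 CPM in DMSO. Coronatine replicate 3 stood within the range of DMSO there, and the log2 fold change was -0.30 ± 0.11, adjusted p = 0.0294. That call ended without DMSO replicate 2 (adjusted p = 0.0838) or 3 (0.0706), without coronatine replicate 1 (0.196) or 2 (0.104), and in a fit of the compared groups alone (0.105).

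PRK, which makes the acceptor ribulose bisphosphate, had 299, 354 and 337 CPM after coronatine with NaCl, against 443, 484 and 487 CPM in DMSO with NaCl. It fell by 0.51 (log2 fold change -0.51 ± 0.08, 1.43-fold lower, adjusted p = 1.7e-05 by edgeR's test) with groups apart. Without NaCl it had 364, 353 and 426 CPM after coronatine, against 398, 464 and 425 CPM in DMSO, overlapping groups with a log2 fold change of -0.17 ± 0.08 and adjusted p = 0.116. The other gene of acceptor regeneration, SBPASE, had 326, 368 and 367 CPM after coronatine with NaCl, against 417, 447 and 443 CPM in DMSO with NaCl. SBPASE fell there (log2 -0.30 ± 0.08, adjusted p = 0.00404) and did not pass without NaCl (-0.08 ± 0.08, adjusted p = 0.475).

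The members of the reduction step, GAPA, GAPB and PGK1, did not pass after coronatine in the main fit. Outside the members, GAPA-2 (AT1G12900) was called lower under NaCl. That call was lost without coronatine with NaCl replicate 1 (adjusted p = 0.0541 by edgeR's test). PGK2 (AT1G56190) was not called in either salt state. GAPA had 813, 896 and 890.2 CPM after coronatine with NaCl, against 949, 1003 and 989.6 CPM in DMSO with NaCl. The groups were apart, but at -0.18 ± 0.08 GAPA missed the threshold (adjusted p = 0.0544 by edgeR's test). It passed at 0.00965 in a fit of these groups alone, at 0.0453 among genes with a mean count of at least 100, and with upper-quartile factors or library totals. Its partner GAPB had 671, 701 and 703 CPM after coronatine with NaCl, against 697, 781 and 715 CPM in DMSO with NaCl, at -0.08 ± 0.07 (95% interval -0.23 to 0.06). PGK1 had 566, 588 and 581 CPM after coronatine with NaCl, against 538, 591 and 566 CPM in DMSO with NaCl, at 0.03 ± 0.06 (-0.10 to 0.16). After coronatine alone PGK1 stood at 603, 589.9 and 661 CPM, against 557, 584 and 547 CPM in DMSO, and 0.14 ± 0.06 missed the threshold (adjusted p = 0.104). PRK and GAPB, whose products bind each other through the CP12 protein in the dark, differed in ratio. The log2 ratio of PRK to GAPB averaged -1.07 ± 0.0894 after coronatine with NaCl and -0.63 ± 0.07 in DMSO with NaCl, and -0.83 ± 0.112 after coronatine alone and -0.70 ± 0.147 in DMSO (SD, n = 3 each), the last 2 groups overlapping. Over both salt states it was lower after coronatine (-0.28, adjusted p = 0.03 by the exact permutation test, n = 6 each). This ratio too was chosen after the values had been seen, with GAPB the member of narrowest profile. Its p-value is therefore no independent test of a difference between PRK and GAPB. All 5 decreases called under NaCl held with each library left out in turn, and with library totals all 10 members were called lower.

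**Figure D3:**
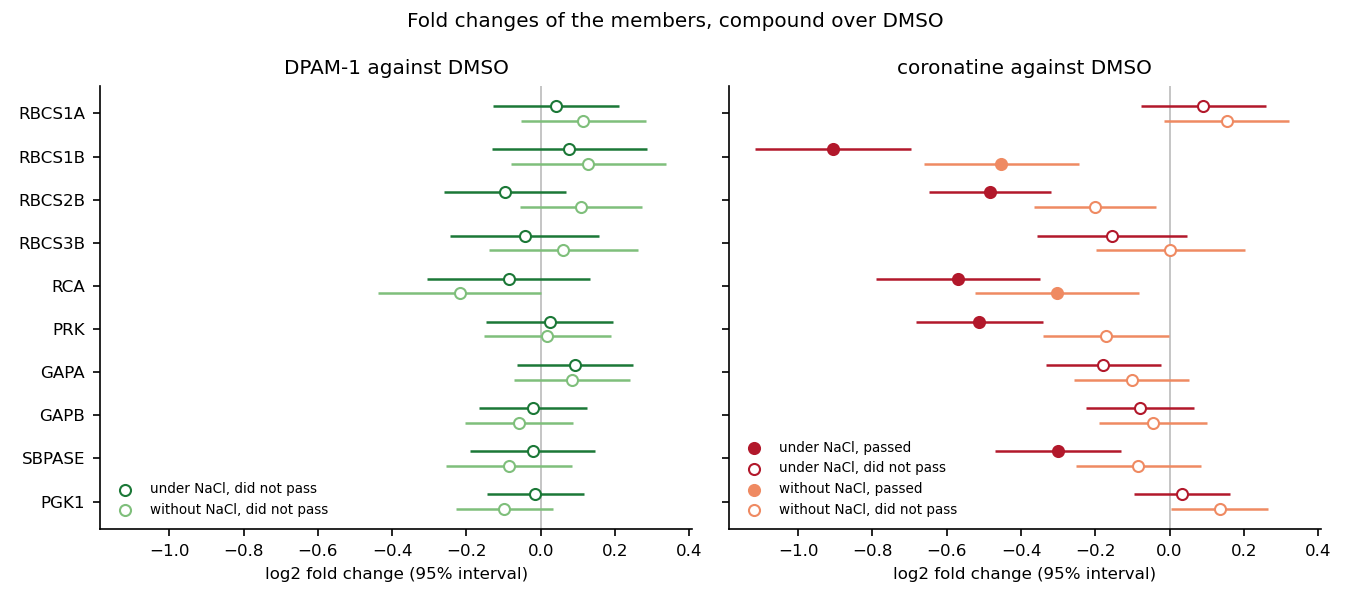
Log2 fold changes of the 10 genes with 95% intervals, compound over DMSO, under NaCl and without NaCl. Filled points passed edgeR's test at an adjusted p under 0.05. After DPAM-1 all 20 points are open and lie between -0.22 and 0.13, while after coronatine 5 are filled under NaCl and 2 without NaCl, all left of 0.

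The scale of the coronatine comparisons depended on how libraries were scaled. By TMM 49.8% of the called genes were higher after coronatine under NaCl and 50.1% without NaCl. With upper-quartile factors these shares were 30.2% and 32.5%, and with library totals 17.4% and 20.7%. The members called under NaCl were then 8 and 10, and without NaCl 5 and 8. Leaving out the DMSO and coronatine libraries numbered 3, which deviated together, gave 6 members called without NaCl.

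DPAM-1 against DMSO called 0 of the 10 genes without NaCl, where 1.02% of all genes passed, and 0 under NaCl, where 0.576% passed. Neither edgeR at an unadjusted p under 0.05 (0 and 0 members) nor DESeq2 (0 and 0) gave a call. Of all genes 14.2% without NaCl and 10% under NaCl reached that unadjusted p. RBCS1B had 4273, 4253 and 4762 CPM after DPAM-1 with NaCl, against 3909, 4393 and 4291 CPM in DMSO with NaCl. RCA had 1267, 1142 and 1123 CPM after DPAM-1 alone, against 1264, 1431 and 1413 CPM in DMSO, groups that overlap by 1 library. This was the largest difference, -0.22 ± 0.11 (95% interval -0.44 to 0.00). Over all members the log2 fold changes lay between -0.22 and 0.13 without NaCl and between -0.10 and 0.09 under NaCl. The widest interval reached 0.44 from 0 without NaCl and 0.31 under NaCl, so 2-fold changes (a log2 of 1) lie outside all 20 intervals and smaller ones may be missed.

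Set against each other at the same concentration, the compounds differed. DPAM-1 against coronatine under NaCl gave 6 members higher and 0 lower, where 42.4% of all genes passed and 20.9% as higher. RBCS1B was 1.98-fold higher (log2 0.98 ± 0.10, adjusted p = 2.4e-08 by edgeR's test), PRK stood at 0.54 ± 0.08 and RCA at 0.48 ± 0.11. RBCS2B followed at 0.39 ± 0.08, and SBPASE (0.28 ± 0.08) and GAPA (0.27 ± 0.08) came last. PRK had 458, 508 and 471 CPM after DPAM-1 with NaCl, against the 299 to 354 CPM of coronatine with NaCl. The call of SBPASE ended without coronatine with NaCl replicate 1 (adjusted p = 0.0584). RBCS1A (-0.05, 95% interval -0.22 to 0.12), RBCS3B (0.11, -0.09 to 0.31), GAPB (0.06, -0.09 to 0.20) and PGK1 (-0.05, -0.18 to 0.08) did not pass.

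Without NaCl 2 members were higher and 1 was lower after DPAM-1 than after coronatine, where 34.9% of all genes passed, 17.4% as higher and 17.5% as lower. RBCS1B had 5011, 4617 and 4571 CPM after DPAM-1, against 3281, 3001 and 3211 CPM after coronatine, at 0.58 ± 0.10 and adjusted p = 6.2e-05 by edgeR's test. RBCS2B had 3486, 2954 and 3176 CPM after DPAM-1, against 2583, 2608 and 2579.7 CPM after coronatine, at 0.31 ± 0.08 and adjusted p = 0.00366. PGK1 went the other way, with 536, 521 and 519 CPM after DPAM-1, against 603, 589.9 and 661 CPM after coronatine. Its log2 fold change was -0.23 ± 0.06, adjusted p = 0.00521, a call that ended with upper-quartile factors (0.0766), with library totals (0.639) and in a fit of the compared groups alone (0.0547). With library totals 8 of 10 members were called without NaCl and all 10 under NaCl. That scaling moved the share of higher calls among all genes to 76.7% and 82.1%, against 49.9% and 49.4% by TMM.

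NaCl itself called 0 of the members in DMSO seedlings, where 17.7% of all genes passed (0 members and 30.1% of all genes at an unadjusted p under 0.05, and 0 members by DESeq2). The log2 fold changes lay between -0.05 and 0.14. Leaving out DMSO replicate 2, the highest of its group for every member, gave 2 calls. After coronatine NaCl lowered 3 members, where 26.8% of all genes passed and 12.1% passed as lower. RBCS1B fell 1.41-fold (log2 -0.50 ± 0.10, adjusted p = 7.6e-04 by edgeR's test), to 1859, 2439.5 and 2425 CPM against the 3001 to 3281 CPM of coronatine alone. RBCS2B fell by 0.32 (log2 -0.32 ± 0.08, adjusted p = 0.00446), and both had groups apart. RCA overlapped between the groups (-0.30 ± 0.11, adjusted p = 0.0421), and its call ended without coronatine replicate 3 (0.337) or coronatine with NaCl replicate 1 (0.243). With library totals 6 members were called after coronatine, and 32.3% of all calls were higher, against 55.0% by TMM.

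After DPAM-1, NaCl lowered RBCS2B alone, where 12.2% of all genes passed and 5.33% as lower. It had 2624, 2737 and 2778 CPM after DPAM-1 with NaCl, against 3486, 2954 and 3176 CPM after DPAM-1 alone, at -0.24 ± 0.08 and adjusted p = 0.0493 by edgeR's test. This call lay at the threshold and ended with RLE factors (0.0583), with the replicate number as a block (0.0584) and without any of 5 of the 6 libraries.

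The difference between the coronatine effects under and without NaCl, tested as an interaction, called 0 of the 10 members by edgeR and by DESeq2, where 3.84% of all genes passed. An unadjusted p under 0.05 was reached by 3 members and by 17.8% of all genes. RBCS1B stood at -0.45 ± 0.14 (adjusted p = 0.0789 by edgeR's test), PRK at -0.34 ± 0.12 (0.108) and RBCS2B at -0.28 ± 0.11 (0.175). All 10 interaction values were below 0. A stronger coronatine effect under NaCl is therefore not shown for any member by this test, although without DMSO replicate 2 it called 2. The DPAM-1 by NaCl interaction called 0 members (0 unadjusted, 0 by DESeq2), where 0.499% of all genes passed and 5.69% had an unadjusted p under 0.05.

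Other genes of the pathway were read from lists. Of 15 other Calvin cycle genes 2 rose, 6 fell and 7 did not pass after coronatine under NaCl, with a median log2 fold change of 0.01, which turned to -0.15 with upper-quartile factors and to -0.31 with library totals. CP12-2, for the small protein that ties glyceraldehyde phosphate dehydrogenase to phosphoribulokinase, had 53.9, 67.6 and 55.9 CPM after coronatine with NaCl, against 114, 129 and 127 CPM in DMSO with NaCl. Its log2 fold change was -1.06 ± 0.12 (adjusted p = 1.7e-07 by edgeR's test), a larger value than for any of the 10 members. The aldolase gene FBA1 (AT2G21330) had 423, 484 and 471 CPM after coronatine with NaCl, against 793, 903 and 869 CPM in DMSO with NaCl, at -0.90 ± 0.07. TKL2 (AT2G45290), a transketolase gene, rose (0.68 ± 0.09). Without NaCl 4 of the list rose and 1, FBA1, fell (-0.50 ± 0.07).

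Among them was the chloroplast gene ATCG00490, listed as RBCL for the large subunit of Rubisco. The annotation used here does not pair this code with a name. It had 45.7, 30.3 and 27.3 CPM after coronatine with NaCl, against 33.0, 35.4 and 15.7 CPM in DMSO with NaCl, at 0.31 ± 0.26 and adjusted p = 0.338 by edgeR's test. Without NaCl it had 50.2, 46.8 and 83.3 CPM after coronatine, against 30.4, 22.8 and 32.8 CPM in DMSO, and rose (1.06 ± 0.26, adjusted p = 0.00224 by edgeR's test). Protocols that start from poly(A) tails catch few mature chloroplast transcripts, so these low values are no measure of abundance.

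Genes for Rubisco assembly mostly fell. Of 10 measured, 8 fell and 1 rose after coronatine under NaCl (median -0.32), and 6 fell without NaCl (median -0.21). AT3G04550, annotated as a Rubisco accumulation factor-like protein, had 49.5, 52.0 and 57.6 CPM after coronatine with NaCl, against 102, 113 and 102 CPM in DMSO with NaCl, 1.99-fold lower (log2 -0.99 ± 0.08, adjusted p = 2.2e-10 by edgeR's test). The chaperonin gene Cpn60beta2 (AT3G13470) stood at -0.76 ± 0.08 and AT5G28500, annotated like AT3G04550, at -0.61 ± 0.07. RbcX2 (AT5G19855), named for a cyanobacterial Rubisco chaperone, rose (0.40 ± 0.09). Both medians kept their sign under every scaling tried.

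Photorespiration recycles the product that Rubisco makes when it takes up oxygen. Of 13 such genes 10 fell and 0 rose after coronatine under NaCl (median -0.40, 1 higher by DESeq2), and 5 fell and 2 rose without NaCl (median -0.14). The glycolate oxidase gene GOX2 (AT3G14415) stood at -0.66 ± 0.07, the aminotransferase gene GGT1 (AT1G23310) at -0.61 ± 0.07 and the hydroxypyruvate reductase gene HPR (AT1G68010) at -0.53 ± 0.06 under NaCl. Among the 7 thioredoxin regulators, which switch Calvin cycle enzymes on in light, 3 fell and 0 rose under NaCl, led by TRXF2 (AT5G16400) at -0.74 ± 0.11 and TRXF1 (AT3G02730) at -0.37 ± 0.08. Without NaCl TRXF2 (-0.58 ± 0.12) and TRXF1 (-0.31 ± 0.08) were the 2 that fell. Of 6 genes of triose phosphate export, starch and sucrose synthesis, 2 rose and 2 fell under NaCl and 1 rose without it. Some of these calls needed every library. Under NaCl, 4 of the 8 called other Calvin cycle genes, 8 of 9 assembly genes, 7 of 10 photorespiration genes, 2 of 3 thioredoxin regulators and 1 of 4 triose phosphate genes were called with each library left out in turn. Without NaCl these were 5 of 5, 2 of 6, 4 of 7, 2 of 2 and 0 of 1.

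Of 6 transcription factors that act on photosynthesis genes, 3 fell and 0 rose after coronatine under NaCl, and 4 fell and 1 rose without NaCl. GNC (AT5G56860), a GATA factor of chloroplast development, had 5.11, 7.74 and 5.39 CPM after coronatine with NaCl, against 24.4, 20.8 and 22.9 CPM in DMSO with NaCl, at -1.93 ± 0.15 and adjusted p = 1.8e-10 by edgeR's test. GLK2 (AT5G44190), a Golden2-like activator of photosynthesis genes, stood at -1.32 ± 0.08 and PIF1 (AT2G20180), a repressor of greening in the dark, at -1.18 ± 0.18. Without NaCl GNC stood at -1.06 ± 0.14 and GLK2 at -0.43 ± 0.08, while GLK1 (AT2G20570) was higher (0.46 ± 0.12). With each library left out in turn, 3 of 3 calls held under NaCl and 3 of 5 without it.

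By TMM most light-harvesting genes that passed were higher. Of 16, 9 rose and 1 fell after coronatine in each salt state, with medians of 0.20 under NaCl and 0.22 without it, and 7 of the 10 calls in each held with any library left out. With library totals the counts were 5 higher and 7 lower under NaCl and the median turned to -0.13, and without NaCl they were 3 and 3 with a median of 0.00. The family gene LHCB1.4 (AT2G34430) stood at 1.48 ± 0.14 under NaCl, and LHCB1.2 (AT1G29910) was the 1 that fell (-0.33 ± 0.07 in each salt state). Their sum was 39364 to 42349 CPM after coronatine with NaCl, against 35323 to 37254 CPM in DMSO with NaCl. By library totals without TMM the order was the other way, with 33658 to 35864 CPM after coronatine with NaCl, against 37790 to 39931 CPM in DMSO with NaCl, and the groups did not overlap on either scale. Root markers summed to 263 to 291 CPM after coronatine with NaCl, against 253 to 281 CPM in DMSO with NaCl, with 3 of 12 higher and 0 lower by edgeR and by DESeq2. Without NaCl 3 root markers were higher and 5 lower after coronatine, with sums of 277 to 307 CPM after coronatine, against 276 to 305 CPM in DMSO. Clock genes, which set the daily course of photosynthesis genes, summed to 101 to 107 CPM after coronatine with NaCl, against 152 to 156 CPM in DMSO with NaCl, with 2 higher and 4 lower of 8, ELF4 (AT2G40080) lowest at -1.71 ± 0.13. Their part in the members' decrease was not tested.

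**Figure D4:**
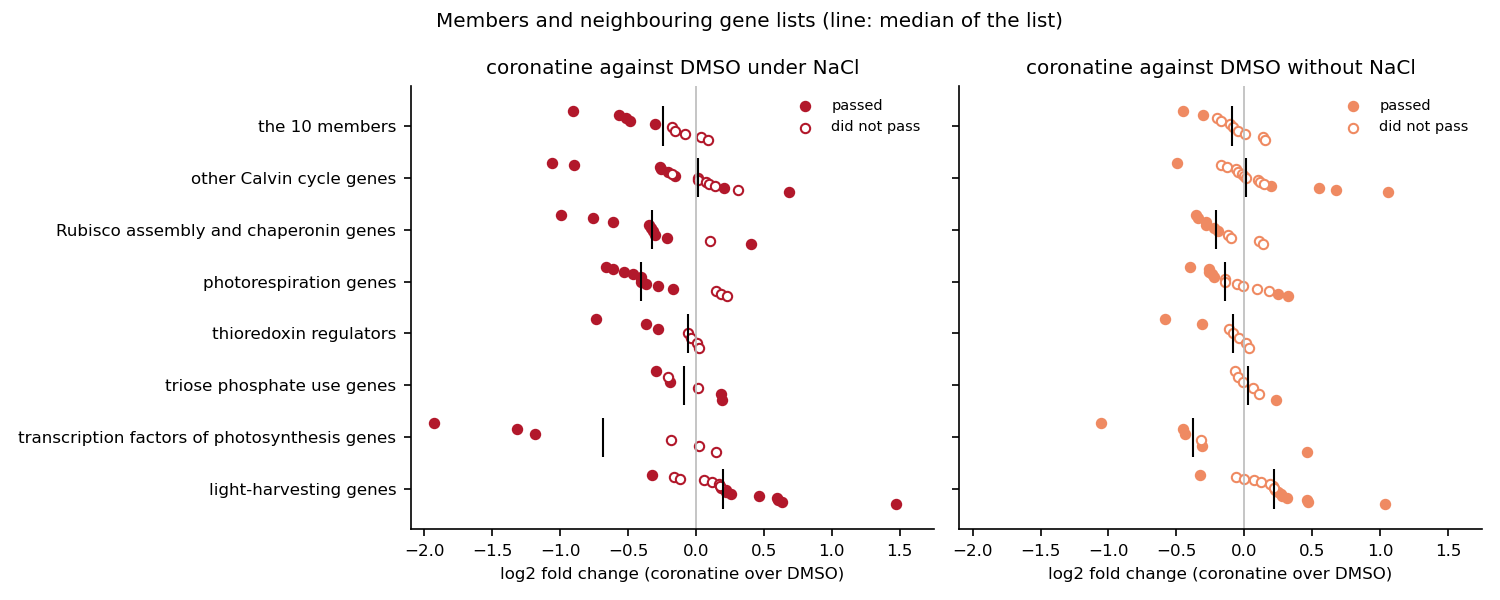
Log2 fold changes of the 10 members and of 7 gene lists after coronatine against DMSO, under NaCl and without NaCl, with filled points for genes that passed and a line at each median. Rubisco assembly and photorespiration genes lie mostly left of 0 (medians -0.32 and -0.40 under NaCl), light-harvesting genes mostly right of it (0.20).

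After DPAM-1 edgeR called no gene of these 7 lists in either salt state. At an unadjusted p under 0.05 it gave 1 of 15 other Calvin cycle genes, 0 of 10 assembly genes and 0 of 7 thioredoxin regulators in each. Without NaCl it gave 0 of 13 photorespiration genes, 1 of 6 triose phosphate genes, 2 of 6 transcription factors and 9 of 16 light-harvesting genes. Under NaCl these were 2, 0, 3 and 4. Of all genes 14.2% without NaCl and 10% under NaCl reached that p. The transcription factors lay between -0.54 and 0.08 without NaCl and between -0.40 and 0.16 under NaCl. GNC had 16.2 to 17.5 CPM after DPAM-1 alone, against 22.5 to 25.4 CPM in DMSO, and was not called by edgeR. DESeq2 called 4 light-harvesting genes as higher and 1 transcription factor as lower without NaCl, and 0 in the 7 lists under NaCl. The light-harvesting median was 0.21 without NaCl and 0.13 under NaCl. Of 12 root markers edgeR called 1 as lower in each salt state.

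The profile of each member over the 6 group means (log2 CPM, centred on the gene) was set beside every other gene by the root mean square difference. RBCS1B had the widest profile, with an SD of 0.379 over the groups, and RCA (0.206), RBCS2B (0.198) and PRK (0.186) followed. GAPB had the narrowest (0.0468). The nearest profile to RBCS1B was that of the ATP sulfurylase gene APS2 (AT1G19920) at 0.0443, and its nearest member was RBCS2B at 0.201. Far more genes lie outside the members than among them, so some gene outside will nearly always be closer. RCA and PRK were each other's nearest member at 0.0901, and outside the members RCA was nearest to FLN1 (AT3G54090), a fructokinase-like gene of the chloroplast, at 0.0264. RBCS1A was nearest to ROC4 (AT3G62030), a cyclophilin gene, at 0.0166, and GAPA to the light-harvesting gene LHCB5 (AT4G10340) at 0.0227. These distances describe 6 group means, and many genes lie near a flat profile: the median distance to all genes was 0.407 for RBCS1B and 0.205 for RBCS1A.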

How the data were processed

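Seedling RNA was sequenced in 18 libraries of 6 groups, and groups were taken from the labels' titles. The authors deposited 1 table of counts, whole reads for each gene. The authors also deposited a signal table, in which each library's counts are scaled by a single factor. The counts were used for all results and the signal table for that check alone. Per the submitters' processing notes, bcl2fastq, Trimmomatic, HISAT2, featureCounts and DESeq2 were used with TAIR10; versions and roles are not given in the sources used here. The lowest count in the table was 30, so genes of low expression are outside all statements. Names and sequences came from TAIR10.1, where 14105 of the 14229 codes were found, and no coordinates are given because the builds' names differ.

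The counts were analysed with edgeR 4.0.16 (limma 3.58.1, R 4.3.3) by TMM scaling, the edgeR expression filter (0 genes removed), and a quasi-likelihood model with 1 mean per group over all 18 libraries, two-sided. The biological coefficient of variation was 10.4%. Alternatives were upper-quartile and RLE factors, library totals, DESeq2 1.42.0, no filter, a mean count of at least 100, organelle genes removed, members and light-harvesting genes left out of the scaling, a log2 fold change of at least 1, the replicate block, the compared groups alone, and each library left out in turn. Chosen after seeing the data were the ratios within a library, the fit without the DMSO and coronatine libraries numbered 3, the coronatine and DMSO groups alone with the block, the list sums by library totals, and the repeats for the lists. Scripts were tested on simulated data.

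The labels do not say that libraries of equal replicate number belong together. Same-numbered libraries of coronatine and DMSO without NaCl deviated together (correlations of 0.126, 0.3 and 0.496), the highest of the comparisons looked at. In the other comparisons the correlations lay between -0.154 and 0.057.

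The members and lists were chosen with earlier results of these data known. All members were named, with, from each list, up to 3 called genes of smallest p in the main direction and 1 in the other, the chloroplast code ATCG00490 whatever its p, and the gene of nearest profile; some of these are left out of the text for length. GAPA-2 and PGK2 were named beside GAPA and PGK1. Of 100 genes looked for, 93 were measured. Not measured were RBCX1, PGLP1, CGA1, CASP5, NRT2.1, LHY and PRR9. Shares and ratios of reads between genes were compared between groups of libraries only. They were not read as relative amounts of transcript, and whether reads measure different genes equally well was not tested. Reads without molecular identifiers are not independent molecules, so depth gives counting precision only.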

Additional observations from a re-analysis of the deposited data

Results flagged for a closer look

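The effect of coronatine against DMSO differed between seedlings under NaCl and seedlings without it for 11 genes of the lists, by edgeR's test of the interaction at an adjusted p under 0.05 over all genes; none of the 10 members was among them. Values are the log2 fold change under NaCl minus that without NaCl. Among other Calvin cycle genes FBA1 stood at -0.40 (SE 0.10) and CP12-2 at -0.89 (SE 0.17). Among Rubisco assembly genes AT5G28500 stood at -0.39 (SE 0.10), AT3G04550 at -0.64 (SE 0.11) and Cpn60beta2 at -0.41 (SE 0.12). The photorespiration gene GGT1 stood at -0.38 (SE 0.10). The transcription factor genes GLK1, GLK2 and GNC stood at -0.64 (SE 0.16), -0.89 (SE 0.11) and -0.87 (SE 0.21), and the clock genes PRR5 and ELF4 at -0.86 (SE 0.17) and -0.63 (SE 0.18). All 11 values are negative: each of these genes was lower after coronatine relative to DMSO under NaCl than without it. Of all genes 3.84% passed this test, and 43.4% of those had positive values.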

How the results depend on the processing

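Of the single members' values under alternatives other than leaving out 1 library, 604 kept direction and call and 28 changed sign; with 1 library left out, 322 kept both and 18 changed sign. The cause of each shift was not tested. With upper-quartile factors the members called numbered 5 for coronatine against DMSO without NaCl, 8 under NaCl, and 1 for the coronatine by NaCl interaction. The log2 fold change of the summed RBCS reads for coronatine against DMSO was -0.075 without NaCl and -0.24 under NaCl, with -0.0026 for DPAM-1 against DMSO and 0.23 for DPAM-1 against coronatine under NaCl. Signs turned for coronatine against DMSO in RBCS3B without NaCl (-0.11) and in RBCS1A (-0.070) and PGK1 (-0.13) under NaCl. They turned for DPAM-1 against coronatine in RBCS1A (0.049), GAPB (0.072) and SBPASE (0.085) without NaCl, in RBCS1A (0.093) and PGK1 (0.094) under NaCl, and for NaCl after coronatine in GAPB (-0.017). With library totals the members called numbered 8 for coronatine against DMSO without NaCl and 10 under NaCl, 8 and 10 for DPAM-1 against coronatine, 6 for NaCl after coronatine and 3 for the coronatine interaction. Summed RBCS stood at -0.18 and -0.40 for coronatine against DMSO without and under NaCl (both called), 0.26 and 0.39 for DPAM-1 against coronatine, and -0.0076 for DPAM-1 against DMSO under NaCl. Signs turned for coronatine against DMSO in RBCS1A (-0.068), RBCS3B (-0.22) and PGK1 (-0.087) without NaCl and in RBCS1A (-0.23) and PGK1 (-0.29) under NaCl. They turned for DPAM-1 against coronatine in RBCS1A (0.16), GAPB (0.18) and SBPASE (0.19) without NaCl, in RBCS1A (0.25) and PGK1 (0.25) under NaCl, and for NaCl after coronatine in RBCS1A (-0.028) and GAPB (-0.071). For NaCl after coronatine, RLE factors gave 0.0010 for summed RBCS and 0.0013 for GAPA, and DESeq2 gave 0.0010 and 0.0012. A mean count of at least 100 gave -0.0012 for RBCS3B in coronatine against DMSO without NaCl. The 1 call for NaCl after DPAM-1 became 0 with RLE factors, with members and light-harvesting genes left out of the scaling, and with the replicate block, which changed no other member call; the coronatine and DMSO groups alone with that block called 3 members without NaCl. Asking for a log2 fold change of at least 1 left 0 members in all 6 comparisons with calls. Fits of the compared groups alone called 1 member for coronatine against DMSO without NaCl, and gave 0.10 for summed RBCS (called) in DPAM-1 against coronatine under NaCl and 0.010 for SBPASE without NaCl. Without the DMSO and coronatine libraries numbered 3, 6 members were called for coronatine against DMSO and 6 for DPAM-1 against coronatine without NaCl. Summed RBCS (-0.027) and RBCS3B (-0.10) then turned negative in coronatine against DMSO, and GAPB (0.012) and SBPASE (0.021) positive in DPAM-1 against coronatine. Leaving out 1 library at a time gave 1 to 3 members called for coronatine against DMSO without NaCl, 0 to 2 for NaCl in DMSO and for the coronatine interaction (2 without DMSO replicate 2), and 0 to 1 for NaCl after DPAM-1. Summed RBCS ranged from 0.029 to 0.22 for NaCl in DMSO (called without DMSO replicate 2), from -0.042 to 0.15 for coronatine against DMSO without NaCl, from -0.020 to 0.073 for DPAM-1 against DMSO under NaCl, from -0.020 to 0.012 for NaCl after coronatine and from -0.025 to 0.068 for NaCl after DPAM-1. Members whose sign turned ranged, for DPAM-1 against coronatine without NaCl, from -0.080 to 0.0059 in RBCS1A, from -0.019 to 0.24 in RCA, from -0.045 to 0.012 in GAPB and from -0.015 to 0.021 in SBPASE. RBCS3B ranged from -0.097 to 0.14 for coronatine against DMSO without NaCl, from -0.057 to 0.021 for NaCl after coronatine and from -0.025 to 0.094 for NaCl after DPAM-1. GAPA ranged from -0.029 to 0.040 for NaCl after coronatine, and PGK1 from -0.0002 to 0.066 for coronatine against DMSO under NaCl.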
